A study of Homo sapiens with 17 samples.

Results

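The 10 genes described here belong to the BCL2 family, which decides whether a cell under stress keeps its mitochondria intact. They are the anti-apoptotic genes MCL1, BCL2 and BCL2L1, the effectors BAX and BAK1, and the BH3-only genes BCL2L11, BID, BIK, BMF and BAD. They were named by symbol and not by any measured value, and all 10 were found among the 19141 genes of the count table. RNA was sequenced from YB5 cells, 1 human line derived from SW48 colon cancer cells that carries a GFP gene silenced behind the CMV promoter. Cells received 250 nM toyocamycin, an adenosine analog made by Streptomyces, or its vehicle DMSO, in a time course that asked how the drug alters gene expression. PolyA-selected RNA gave 17 libraries, 8 of DMSO and 9 of toyocamycin. Each arm had 2 libraries at 2 h and 3 at 72 h. At 24 h and at 48 h each arm had 1 library, so these time points carry no test. At 10 h there was 1 library of DMSO and there were 2 of toyocamycin. The labels place replicate 2 of both arms at 2 h and at 10 h in batch 2, which holds 4 libraries, and the other 13 libraries in batch 1.

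The libraries held 8735465 to 22121364 counted reads each. Replicate 2 of toyocamycin at 10 h had the lowest total. It also had the most genes with a read, 18654 against 13434 to 16549 in the other libraries. This library held the highest summed level of 8 markers of blood, vessel, muscle and stromal cells, 25.2 CPM against 0.433 to 21.9 CPM elsewhere. CPM are reads scaled by the library total after its adjustment with TMM, edgeR's normalization factor for each library. Comparisons of CPM between libraries therefore depend on TMM and differ from those by library size alone. Of 8 markers of colon epithelium, EPCAM, CDH1, KRT8, KRT18 and CDX2 had at least 333 counts in every library. KRT20 and CDX1 stayed at or below 10 counts and VIL1 at or below 94 counts in all libraries, and KRT20 and CDX1 were at 0 in some. The summed level of the 8 colon markers was 524 to 558 CPM with toyocamycin at 72 h and 5807 to 6681 CPM with DMSO at 72 h. KRT8 and KRT18 made up most of this DMSO sum (means of 4293 and 1215 CPM). In DMSO at the other times the sum was 1734 to 3376 CPM. At 72 h EPCAM, CDH1, KRT8, KRT18 and VIL1 were lower with toyocamycin. CDX2 was higher, with 96.9 to 114 CPM against 56.6 to 81.3 CPM in DMSO. The part of these shifts in the results below was not tested.

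Proteins of the BCL2 family share BH domains and act on the outer mitochondrial membrane. MCL1, BCL2 and BCL-xL (the main product of BCL2L1) hold BAX and BAK1 in check, BAX and BAK1 open the membrane and let cytochrome c escape, and BH3-only proteins either neutralize the anti-apoptotic members or engage the effectors directly. MCL1 stands out because both its mRNA and its protein are short-lived, so that its level depends on continuous synthesis.

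RefSeq, on GRCh38.p14, listed a promoter window for 8 of the 10 genes and a single start for 4 of them. The windows of BAX, BAK1 and BCL2L11 are shown because these are the 3 genes with a single listed start that were called at 72 h, and because their courses differed from each other. Each run holds the 250 bases before the start, 5′ to 3′ on the strand of the gene, with motif letters in capitals. The motifs searched on both strands were the GC box (GGGCGG), the CCAAT box (CCAAT), the TATA box (TATAAA) and the E-box (CACGTG). BAX lies on the plus strand at chr19:48954625-48954874, BAK1 on the minus strand at chr6:33580277-33580526, and BCL2L11 on the plus strand at chr2:111120664-111120913.
BAX: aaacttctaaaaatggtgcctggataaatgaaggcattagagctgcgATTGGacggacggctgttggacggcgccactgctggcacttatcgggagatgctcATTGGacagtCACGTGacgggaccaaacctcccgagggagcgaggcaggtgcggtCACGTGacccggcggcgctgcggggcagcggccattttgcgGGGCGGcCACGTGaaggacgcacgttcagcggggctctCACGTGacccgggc
BAK1: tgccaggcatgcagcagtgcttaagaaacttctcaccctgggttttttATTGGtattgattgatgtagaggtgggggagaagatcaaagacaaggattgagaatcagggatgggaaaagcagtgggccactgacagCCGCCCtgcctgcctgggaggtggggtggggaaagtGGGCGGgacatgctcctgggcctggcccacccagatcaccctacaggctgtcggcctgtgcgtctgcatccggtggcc
BCL2L11: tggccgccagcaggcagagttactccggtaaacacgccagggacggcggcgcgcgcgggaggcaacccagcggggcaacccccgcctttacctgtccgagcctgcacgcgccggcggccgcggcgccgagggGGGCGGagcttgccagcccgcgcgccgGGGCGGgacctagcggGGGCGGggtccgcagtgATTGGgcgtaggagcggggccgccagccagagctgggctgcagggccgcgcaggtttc
The BAX window held 4 E-boxes, 2 CCAAT boxes and 1 GC box. Among all 35116 listed windows of this length, 6.34% held at least 1 E-box, 32% at least 1 CCAAT box and 42.6% at least 1 GC box. Windows with 4 or more E-boxes made up 0.0142%. The BAK1 window held 2 GC boxes and 1 CCAAT box, and the BCL2L11 window held 3 GC boxes and 1 CCAAT box. None of the 3 held the TATA box letters, which 10.7% of all windows held. GC content was 62.8% for BAX, 58% for BAK1 and 76.8% for BCL2L11, against a median of 58% over all windows. These matches describe the letters of the windows and do not show that a factor binds there.

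All 10 genes passed the filter on low counts. In DMSO, levels between genes were compared as CPM per kilobase of exon, over the 8 DMSO libraries of all time points. BAX, which forms pores in the mitochondrial membrane, ranged from 21.9 to 51.3 with a median of 35.6. BCL2L1 ranged from 28.3 to 48.6 with a median of 34.4, and MCL1 from 24.5 to 37.7 with a median of 28.7. The ranges of these 3 genes overlapped, so their order was not resolved. BAK1, the partner effector of BAX, ranged from 12.5 to 18.0 and lay below every MCL1 value. BID, whose cleavage by caspase-8 joins the death receptor route to mitochondria, ranged from 8.88 to 15.4 and overlapped BAK1. BIK, a BH3-only gene of the endoplasmic reticulum, ranged from 6.65 to 22.1 and overlapped both. BCL2L11, which encodes BIM, ranged from 3.56 to 7.87, BAD, a BH3-only gene controlled by phosphorylation, from 1.26 to 4.18, and BCL2 from 1.73 to 2.88. BMF, a BH3-only gene tied to the cytoskeleton, was the lowest, at 0.0353 to 0.729, below every value of the other genes. BCL2 thus stood near the bottom of the family in these cells per unit of length, while BCL2L1 and MCL1 were the abundant anti-apoptotic transcripts.

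**Figure D1:**
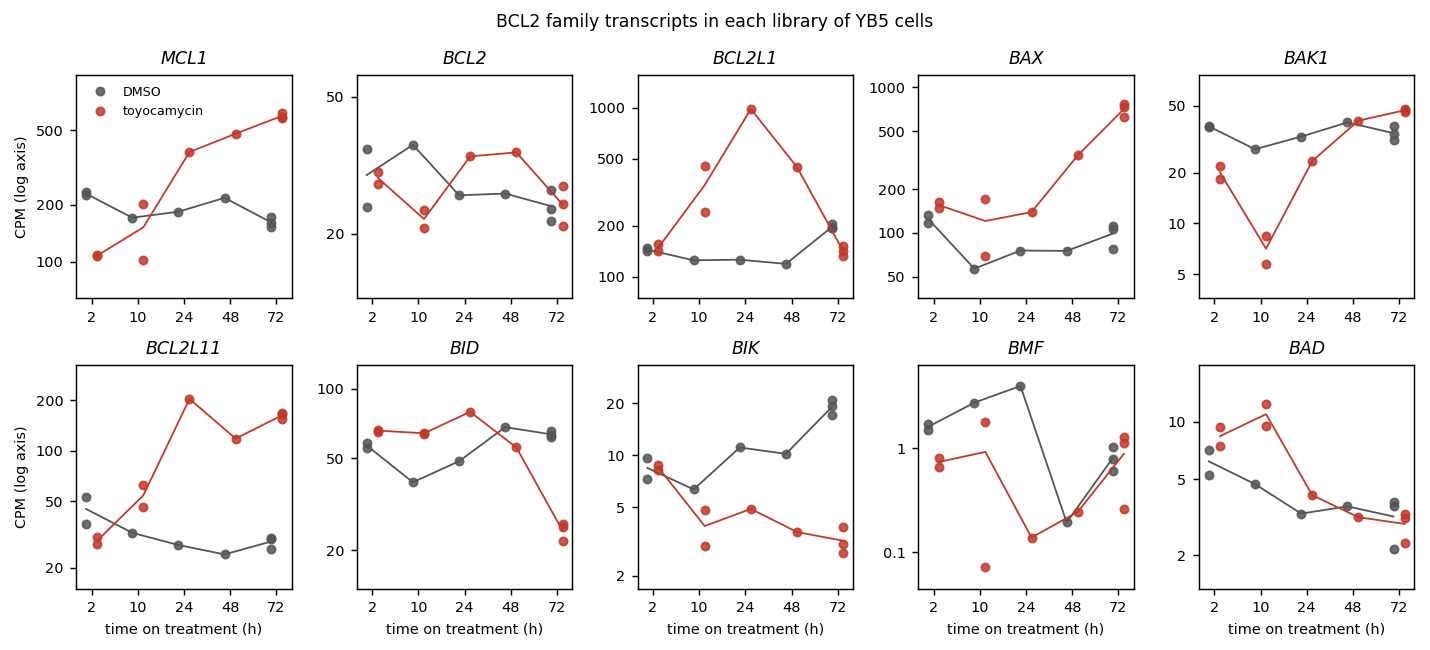
Level of each of the 10 genes in each of the 17 libraries, in CPM on a log axis with its own range for each gene, against time on treatment. Points are libraries, gray for DMSO and red for toyocamycin, and lines join group means. Red points of MCL1 lie below gray at 2 h and above it from 24 h on (by 0.05 on the log2 scale at 24 h by library size alone, and not so at 24 and 48 h on the scale of mitochondrially encoded genes), BCL2L1 peaks at 24 h, and BIK falls away from gray.

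At 2 h, 3 of the 10 genes were lower with toyocamycin and 0 were higher at an adjusted p under 0.1. These were MCL1, BAK1 and BCL2L11, 1 gene of each functional class. No gene of the 10 was higher at an unadjusted p under 0.05 either, and DESeq2's Wald test also gave 0. Over all 14491 genes tested, 8.42% were lower and 0.518% were higher. The median change of the 10 genes was -0.01 on the log2 scale, against 0.02 over all genes tested. These fits did not use the batch that libraries of the same number share at 2 h. In a fit of the libraries of 2 h alone with that batch as a block, BAX was called higher and BMF lower, as given below. There 18.7% of all genes were lower and 8.72% higher, against 6.23% and 0.143% in the same libraries without the block. In bulk RNA, fewer cells of a type and less RNA per cell cannot be told apart.

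MCL1 (chromosome 1, 150560895 to 150579738, minus strand, GRCh38) measured 225 and 234 CPM in the DMSO libraries at 2 h and 108 and 107 CPM in the toyocamycin libraries. The arms did not overlap, and the means were 230 ± 6.51 and 107 ± 0.418 CPM (SD, n = 2 each). The log2 fold change was -1.10 ± 0.140 (SE), a level 0.467 times that of DMSO, with an adjusted p of 0.000152 by edgeR's quasi-likelihood test. Leaving out any library of 2 h kept the value between -1.13 and -1.07.

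BAK1 (chromosome 6, 33572547 to 33580293, minus strand) fell from 37.4 and 38.1 CPM in DMSO to 22.0 and 18.3 CPM. Its arms did not overlap either, and the log2 fold change was -0.91 ± 0.160 (adjusted p = 0.00213). Lack of overlap did not mark out the called genes at 2 h, since BAX, BID, BMF and BAD, which did not pass, had arms apart too. The share of all genes with arms apart was not computed, at this or any other time. BCL2L11 (chromosome 2, 111119378 to 111168444, plus strand) measured 36.7 and 53.0 CPM in DMSO and 27.5 and 30.4 CPM with toyocamycin. Its log2 fold change was -0.63 ± 0.176 (adjusted p = 0.0402), and its DMSO libraries differed from each other by more than the nearest values of the arms did. This call was lost without replicate 2 of DMSO (-0.34, adjusted p = 0.39), without replicate 1 of toyocamycin (-0.56, adjusted p = 0.222) and without replicate 2 of toyocamycin (-0.7, adjusted p = 0.101). Scaled on the 13 mitochondrially encoded genes, none of the 3 calls was kept, although all 3 values stayed negative (MCL1 -1.23, adjusted p = 0.694).

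The other anti-apoptotic genes did not pass at 2 h. BCL2 (chromosome 18, 63123346 to 63320128, minus strand) measured 23.9 and 35.4 CPM in DMSO and 30.2 and 28.0 CPM with toyocamycin, so the toyocamycin values lay between those of DMSO. BCL2L1 (chromosome 20, 31664452 to 31723989, minus strand) measured 147 and 142 CPM in DMSO and 141 and 157 CPM with toyocamycin, and its arms overlapped as well. The log2 fold changes were -0.02 ± 0.201 and 0.04 ± 0.140, with adjusted p-values of at least 0.940. MCL1 was therefore the single anti-apoptotic gene of the 3 called at this time.

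Among the remaining genes, BAX (chromosome 19, 48954815 to 48961798, plus strand) stood at 133 and 117 CPM in DMSO and 162 and 148 CPM with toyocamycin at 2 h. The change of 0.31 did not pass (adjusted p = 0.479), but in a fit of the 4 libraries with the batch, and thus the replicate number, as a block it did (0.31, adjusted p = 0.0251), and the count of genes higher at 2 h was then 1, where 8.72% of all genes in that fit were higher and 18.7% lower. BMF (chromosome 15, 40087890 to 40108892, minus strand) had 36 and 33 counts in DMSO and 16 and 15 with toyocamycin. Its change of -1.12 ± 0.493 did not pass (adjusted p = 0.281), and in the blocked fit it did (-1.13, adjusted p = 0.0412). BID measured 55.2 and 58.2 CPM in DMSO and 66.5 and 65.1 CPM with toyocamycin, BIK 9.59 and 7.30 against 8.78 and 8.18 CPM, and BAD 5.26 and 7.15 against 7.42 and 9.37 CPM. Their changes of 0.22, 0.00 and 0.44 did not pass (adjusted p of at least 0.548), and of these 3 genes the arms of BIK overlapped.

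At 10 h, 2 of the 10 genes were lower and 5 were higher, where 24.4% of 16521 genes tested were lower and 20.4% were higher. The median change was 0.27 for the 10 genes and 0.42 for all genes tested. BAK1 and BCL2 fell, and BCL2L1, BAX, BCL2L11, BID and BAD rose. The spread of the DMSO arm was taken from the other groups, since it had 1 library.

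BAK1 fell furthest, from 27.6 CPM in DMSO to 8.42 and 5.75 CPM, the lowest BAK1 levels of any library. Its log2 fold change was -1.94 ± 0.236 (adjusted p = 1.60e-05), and it lay between -2.26 and -1.7 when either toyocamycin library was left out. BCL2 measured 36.3 CPM in DMSO and 20.8 and 23.4 CPM with toyocamycin, a change of -0.71 ± 0.251 (adjusted p = 0.0359). With DESeq2's size factors this value was -0.51 and no longer passed (adjusted p = 0.121).

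BCL2L1 rose from 125 CPM to 454 and 243 CPM, a log2 fold change of 1.48 ± 0.306 (adjusted p = 0.00142). Both toyocamycin libraries lay above DMSO, by margins that differed between them. BID (chromosome 22, 17734138 to 17774770, minus strand) measured 39.3 CPM in DMSO and 64.2 and 63.9 CPM with toyocamycin (0.71 ± 0.204, adjusted p = 0.0132). BAD (chromosome 11, 64269830 to 64284704, minus strand) rose from 4.72 CPM to 9.49 and 12.4 CPM (1.20 ± 0.386, adjusted p = 0.0232). BCL2L11 rose from 32.3 CPM to 62.3 and 45.8 CPM (0.74 ± 0.262, adjusted p = 0.0360), the opposite direction to 2 h. BAX measured 56.7 CPM in DMSO and 172 and 69.2 CPM with toyocamycin (1.09 ± 0.397, adjusted p = 0.0420). For BAX the call rested on replicate 1 of toyocamycin, since within batch 2 alone the change was 0.29 (adjusted p = 0.353). Values at 10 h given within batch 2 or without a toyocamycin library set 1 library against 1, with the spread of both arms taken from the other groups, most of them of batch 1, so their p-values assume that these libraries vary like those.

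For MCL1 the toyocamycin libraries of 10 h fell on either side of DMSO, at 202 CPM (batch 1) and 102 CPM (batch 2) against 171 CPM (batch 2). The pooled change was -0.18 ± 0.295 (adjusted p = 0.631). Within batch 2 it was -0.75 (adjusted p = 0.00577), and with the batch 1 library alone it was 0.24 (adjusted p = 0.342). The library at 102 CPM is the one of low total described above. BIK (chromosome 22, 43110750 to 43129712, plus strand) measured 6.33 CPM in DMSO and 4.78 and 2.98 CPM with toyocamycin, and its change of -0.67 did not pass (adjusted p = 0.105). Within batch 2 the change of BIK was -1.08 (adjusted p = 0.0227). BMF had 65 counts in DMSO and 1 and 16 counts with toyocamycin, and its change of -1.66 ± 1.05 did not pass (adjusted p = 0.211), though it did without replicate 2 of toyocamycin (adjusted p = 0.00127). Under scaling by library size alone, 4 genes were lower and 1 was higher at 10 h, against 34.4% and 11.3% of all genes. Under scaling on mitochondrially encoded genes 4 were lower and 0 higher, against 32.5% and 3.04%, so the balance of directions at this time depended on the scaling.

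At 24 h and 48 h, genes were called by a log2 fold change past 1 between 1 library of each arm. At 24 h, 2 of the 10 genes were lower and 3 were higher, against 27.8% and 29.7% of 14491 genes. At 48 h, 1 was lower and 4 were higher, against 29.9% and 38.1%. Intervals given for these time points are exact binomial (Clopper-Pearson) intervals at 95% and cover counting error only.

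BCL2L1 reached its own highest level at 24 h, 984 CPM with toyocamycin and 126 CPM with DMSO, a CPM ratio of 7.80 (7.50 to 8.10). At 48 h it stood at 445 and 119 CPM, a ratio of 3.75 (3.57 to 3.93). Of its exonic bases, 41.3% also lie in ABALON, an antisense RNA gene on the opposite strand. The counting setting for strand was not given in the sources used here, so how reads in the shared bases were counted is not known. BCL2L11 took a course of like height, with 204 and 27.3 CPM at 24 h, a ratio of 7.50 (6.90 to 8.15), and 118 and 24.0 CPM at 48 h, a ratio of 4.93 (4.45 to 5.46). By library size alone the log2 change at 24 h and 48 h was 1.96 and 1.32 for BCL2L1 and 1.90 and 1.71 for BCL2L11. On the scale of mitochondrially encoded genes it was 0.70 and 0.08 for BCL2L1 and 0.65 and 0.48 for BCL2L11, so that neither gene was past 1.

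MCL1 stood above DMSO at 24 h and 48 h in CPM, by a margin that depended on the scaling. It measured 382 CPM with toyocamycin and 184 CPM with DMSO at 24 h, a ratio of 2.07 (1.99 to 2.16), and 478 and 218 CPM at 48 h, a ratio of 2.19 (2.11 to 2.28). By library size alone the log2 change of MCL1 was 0.05 at 24 h and 0.55 at 48 h, neither past 1. On the scale of mitochondrially encoded genes the log2 change of MCL1 turned to -1.21 at 24 h and -0.69 at 48 h, where the median of all genes moved from 0.00 to -2.16 and from 0.16 to -1.64. BAX measured 139 against 75.6 CPM at 24 h, a ratio of 1.83 (1.72 to 1.95), and 341 against 75.1 CPM at 48 h, a ratio of 4.55 (4.29 to 4.82). The log2 change of BAX at 24 h turned to -0.13 by library size alone and to -1.38 on mitochondrially encoded genes, where that at 48 h was 0.36 and no longer past 1. BAK1 returned towards DMSO, with 23.5 against 32.8 CPM at 24 h and 40.8 against 39.8 CPM at 48 h.

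BIK was lower at both times, with 4.88 against 11.1 CPM at 24 h and 3.58 against 10.2 CPM at 48 h, ratios of 0.438 (0.333 to 0.570) and 0.353 (0.249 to 0.490). BMF had 2 counts with toyocamycin and 102 with DMSO at 24 h, a ratio of 0.0346 with an interval from 0.00414 to 0.128. At 48 h it had 3 and 4 counts, so that no difference was detectable at this depth. The DMSO libraries themselves ranged from 4 to 102 counts of BMF. BID measured 79.3 against 48.5 CPM at 24 h and 55.6 against 68.1 CPM at 48 h, and BAD 4.13 against 3.31 CPM and 3.17 against 3.61 CPM, so both stayed within a log2 change of 1. BCL2 was 33.6 against 25.9 CPM at 24 h and 34.5 against 26.2 CPM at 48 h. By library size alone and on mitochondrially encoded genes the changes of BCL2, BID and BAD at 24 h and of BCL2, BAK1 and BMF at 48 h were negative.

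**Figure D2:**
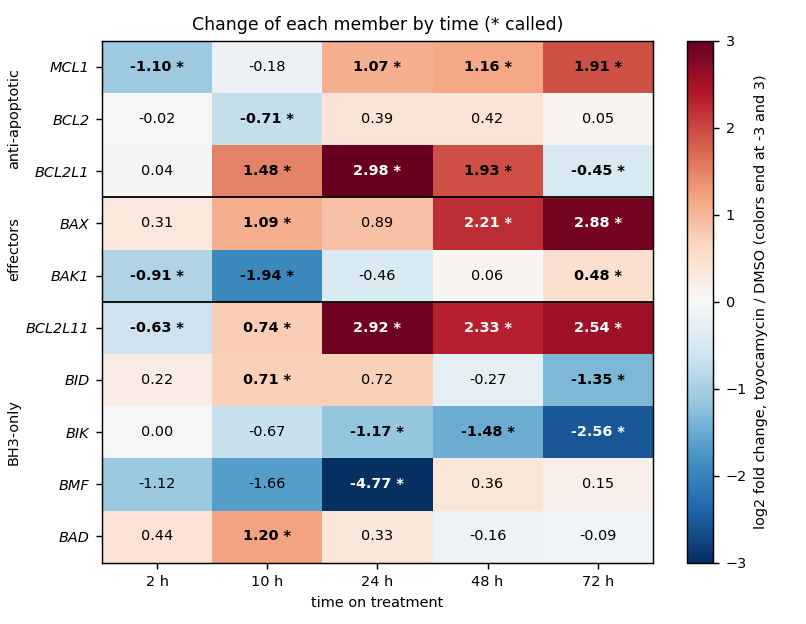
Log2 fold change of toyocamycin against DMSO for the 10 genes at each of the 5 times, red for higher and blue for lower. An asterisk marks an adjusted p under 0.1 at 2, 10 and 72 h, and a log2 fold change past 1 at 24 and 48 h, where each arm had 1 library. MCL1 and BCL2L11 go from blue at 2 h to red at 72 h, BIK deepens to -2.56, and BCL2L1 turns from 2.98 at 24 h to -0.45 at 72 h.

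At 72 h, 3 of the 10 genes were lower and 4 were higher, where 41.9% of 14491 genes tested were lower and 47.0% were higher. The share of the family that moved was thus no larger than that of all genes. The median change was 0.10 for the 10 genes and 0.18 for all genes tested. MCL1, BAX, BAK1 and BCL2L11 were higher, and BCL2L1, BID and BIK were lower.

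MCL1 measured 173, 152 and 161 CPM in the DMSO libraries at 72 h and 580, 585 and 616 CPM in those of toyocamycin. The lowest toyocamycin value lay well above the highest of DMSO. The means were 162 ± 10.5 and 594 ± 19.8 CPM (SD, n = 3 each), and the log2 fold change was 1.91 ± 0.116, or 3.75-fold (adjusted p = 4.23e-10). Its size depended on the scaling, from 0.82 on mitochondrially encoded genes (adjusted p = 0.0859) to 2.23 with DESeq2's size factors, and it was called under each scaling.

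BCL2L1, whose product BCL-xL binds BAX and BAK1, stood at 195, 204 and 193 CPM in DMSO and 141, 151 and 133 CPM with toyocamycin. The arms did not overlap, and the log2 fold change was -0.45 ± 0.114 (adjusted p = 0.00192). With DESeq2's size factors the change was -0.12 and did not pass (adjusted p = 0.328). BCL2 measured 26.8, 21.8 and 23.6 CPM in DMSO and 21.1, 27.5 and 24.5 CPM with toyocamycin, which overlapped, and its change of 0.05 did not pass (adjusted p = 0.775). Under other scalings BCL2 was called lower (-0.55 by library size alone) or higher (0.37 with DESeq2's size factors), so that no direction can be given for it.

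Both effectors were higher at 72 h. BAX measured 107, 112 and 77.4 CPM in DMSO and 628, 736 and 767 CPM with toyocamycin, without overlap. Its change of 2.88 ± 0.159 (adjusted p = 1.36e-10) was the largest rise of the 10 genes, from 98.7 ± 18.6 to 710 ± 72.8 CPM (SD, n = 3 each). BAK1 measured 37.7, 34.1 and 31.4 CPM in DMSO and 47.9, 45.7 and 47.4 CPM with toyocamycin (0.48 ± 0.130, adjusted p = 0.00268). The BAK1 arms did not overlap, yet the direction turned to -0.12 by library size alone and to -0.61 on mitochondrially encoded genes, and neither passed.

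The BH3-only genes went in different directions at 72 h. BCL2L11 measured 29.8, 25.8 and 30.2 CPM in DMSO and 165, 168 and 155 CPM with toyocamycin, a change of 2.54 ± 0.149 (adjusted p = 2.72e-10). BID fell from 65.6, 62.8 and 61.6 CPM to 25.8, 21.8 and 25.2 CPM (-1.35 ± 0.122, adjusted p = 4.16e-08). BIK fell from 17.1, 21.0 and 19.4 CPM to 3.83, 2.69 and 3.04 CPM (-2.56 ± 0.201, adjusted p = 8.22e-09), the largest fall of the 10 genes. None of these 3 genes had overlapping arms, and each kept its direction and its call under all scalings. The DMSO level of BIK was itself higher at 72 h, 17.1 to 21.0 CPM, than at the earlier times, 6.33 to 11.1 CPM. BAD and BMF did not pass, with changes of -0.09 (adjusted p = 0.766) and 0.15 (adjusted p = 0.775). BAD measured 3.82, 3.62 and 2.15 CPM in DMSO and 3.15, 2.32 and 3.30 CPM with toyocamycin. BMF held 14 to 22 counts in DMSO and 3 to 13 with toyocamycin. BAD shares 23.7% of its exonic bases with GPR137 on the opposite strand, and BCL2L11 shares 10.8% with MIR4435-2HG.

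The order of the family per unit of length was different in toyocamycin at 72 h from that in DMSO of the same time. In DMSO the mean of BCL2L1 was 47.0 ± 1.37 CPM per kilobase and that of MCL1 26.0 ± 1.68 (SD, n = 3). With toyocamycin MCL1 stood at 95.4 ± 3.17 and BCL2L1 at 33.7 ± 2.07. BAX led with 275 ± 28.1, and BCL2L11, at 24.2 ± 1.08, lay just above BAK1, at 21.2 ± 0.518, and every BCL2L11 library exceeded every BAK1 library. In DMSO BCL2L11 was at 4.24 ± 0.361 and BAK1 at 15.5 ± 1.43. BCL2 and BAD, at 1.93 ± 0.253 and 1.71 ± 0.310, did not differ beyond their spread with toyocamycin.

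The effect at 72 h was compared with that at 2 h in the same fit, as the difference between the log2 fold changes. It was negative and called for 3 of the 10 genes and positive and called for 4, where 38.1% of 14491 genes were called lower and 38.0% higher. The median difference was 0.67 for the 10 genes and 0.24 for all genes tested. MCL1 and BCL2L11 had the largest differences, 3.00 ± 0.182 (adjusted p = 1.32e-09) and 3.17 ± 0.231 (adjusted p = 8.52e-09). BAX differed by 2.57 ± 0.239 and BAK1 by 1.39 ± 0.206. MCL1, BCL2L11 and BAK1 each went from a called fall at 2 h to a called rise at 72 h. For BAK1 the rise turned under the scalings named above, and the difference did not pass on mitochondrially encoded genes (0.4, adjusted p = 0.661). For BCL2L11 the fall at 2 h lost its call without single libraries, as given above. On mitochondrially encoded genes none of the 3 falls at 2 h was called. BIK differed by -2.56 ± 0.296, BID by -1.57 ± 0.187 and BCL2L1 by -0.49 ± 0.180. The difference of BCL2L1 did not pass without replicate 2 of toyocamycin at 2 h (-0.39, adjusted p = 0.109) or with DESeq2's size factors (-0.2, adjusted p = 0.347). BCL2, BMF and BAD, with differences of 0.08, 1.27 and -0.53, did not pass.

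**Figure D3:**
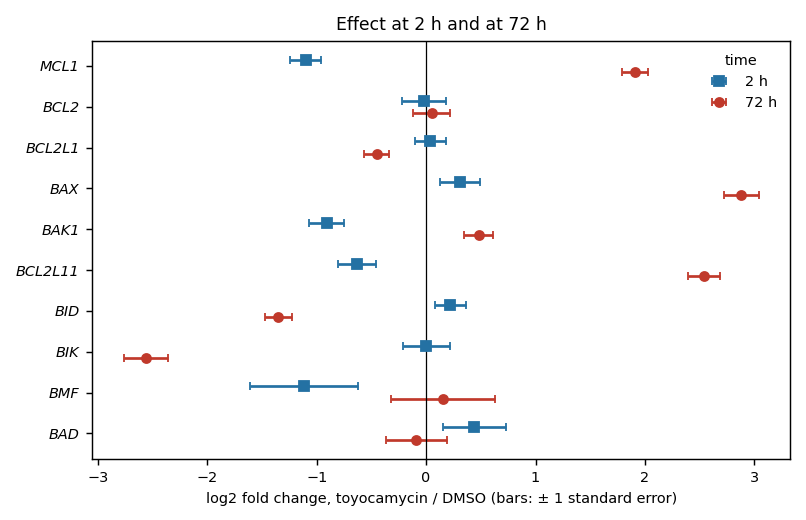
Log2 fold change of toyocamycin against DMSO at 2 h (blue squares) and at 72 h (red circles) for the 10 genes, with bars of 1 standard error on each side. MCL1, BAK1 and BCL2L11 lie left of 0 at 2 h and right of it at 72 h (BAK1 not so at 72 h by library size alone or on mitochondrially encoded genes), while BID and BIK lie left of 0 at 72 h.

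Ratios of counts between 2 genes of the same library do not depend on how the libraries were scaled, and 4 were computed. Since counts are not per length, their course over time and arm is informative and their size is not. MCL1 per BCL2L1 was 1.53 and 1.65 in DMSO at 2 h and 0.764 and 0.681 with toyocamycin. It was lowest with toyocamycin at 10 h, 0.444 and 0.418, and at 24 h, 0.389, where DMSO stood at 1.37 and 1.46. At 48 h it was 1.07 against 1.83 in DMSO. At 72 h the order was the other way, with 4.11, 3.88 and 4.62 for toyocamycin and 0.887, 0.748 and 0.832 for DMSO. Thus MCL1 lost ground to BCL2L1 up to 24 h and then gained on it, under any scaling of the libraries.

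BAX per BAK1 was higher in each toyocamycin library than in any DMSO library. It ranged from 1.89 to 3.55 over the 8 DMSO libraries and from 5.89 to 20.5 over the 9 of toyocamycin, with 7.38 and 8.11 already at 2 h. BCL2L11 per MCL1, a BH3-only gene against an anti-apoptotic gene whose protein it binds, ranged from 0.110 to 0.226 in DMSO and from 0.247 to 0.535 with toyocamycin, again without overlap. Its highest value was that of 24 h, and at 72 h it was 0.285, 0.288 and 0.251 against 0.172, 0.169 and 0.188. MCL1 per BCL2 was 3.56 and 3.82 with toyocamycin at 2 h, below the range of DMSO over all times, 4.73 to 9.42, and 27.4, 21.2 and 25.1 at 72 h, above it. These ratios are descriptions and carry no test. The pairs come from genes chosen with earlier results of these data known. How many other pairs of genes separate the arms in the same way was not computed. At 72 h, 41.9% of all genes tested were lower and 47.0% higher, so many pairs can do so.

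**Figure D4:**
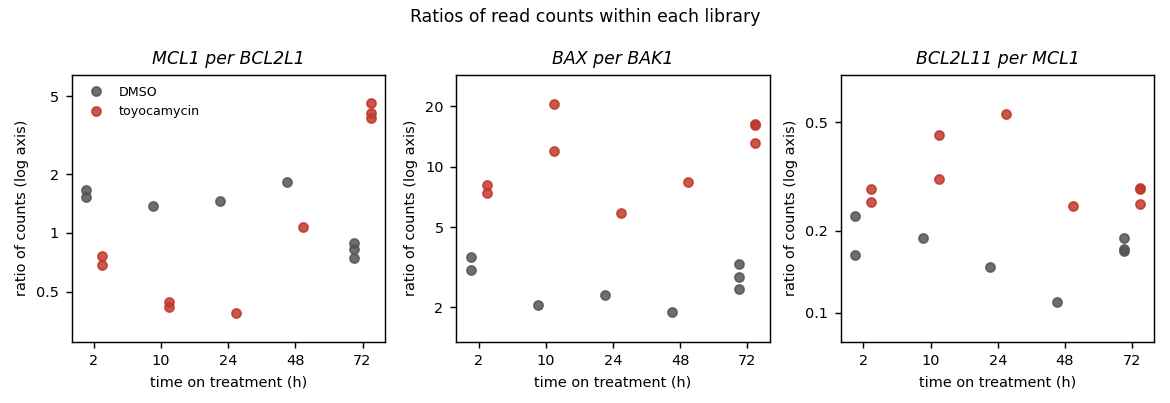
Ratio of read counts of MCL1 to BCL2L1, BAX to BAK1 and BCL2L11 to MCL1 within each of the 17 libraries, on log axes, against time on treatment, gray for DMSO and red for toyocamycin. Red points of BAX per BAK1 and of BCL2L11 per MCL1 all lie above the gray ones, while MCL1 per BCL2L1 lies below gray up to 48 h and above it at 72 h.

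Genes that act with the family were read from 5 lists of 53 genes, of which 47 were tested at 2 h and at 72 h. They were 13 further family members, 13 genes of the apoptosome and the caspases, 7 inhibitors of apoptosis (IAP genes), 13 genes of the death receptor route and 7 genes that add or remove ubiquitin or otherwise control turnover of the MCL1 protein. At 2 h, 5 of the 47 were lower and 0 higher by edgeR, against 8.42% and 0.518% of all genes, with a median change of -0.08, and 0 of the 47 were higher at an unadjusted p under 0.05. The medians were 0.09 for the further family members, 0.00 for apoptosome and caspases, -0.31 for IAP genes, -0.19 for the death receptor route and -0.03 for MCL1 turnover. The lower genes included BIRC2 and BIRC3 of the IAP genes and FADD and RIPK1 of the death receptor route. BIRC2 is named here after its values were seen. FADD, the adaptor that recruits caspase-8 to death receptors, fell most, from 13.1 ± 0.211 to 2.66 ± 0.602 CPM (SD, n = 2 each, log2 fold change -2.31, adjusted p = 1.75e-05). BIRC3, which encodes cIAP2, went from 8.81 ± 4.25 to 2.38 ± 0.383 CPM (-1.88, adjusted p = 0.00296), and RIPK1, a kinase of the tumor necrosis factor receptor complex, from 39.4 ± 1.44 to 17.8 ± 0.419 CPM (-1.14, adjusted p = 0.000334). An antisense RNA gene shares 59.2% of the exonic bases of FADD.

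At 10 h, 20 of 49 tested were lower and 10 higher, against 24.4% and 20.4% of all genes. At 24 h, 20 and 13 of 47 were past a log2 change of 1, against 27.8% and 29.7%, and at 48 h 17 and 19, against 29.9% and 38.1%. At 72 h, 23 of the 47 were lower and 19 higher, with a median of -0.23. Of the 13 further family members 9 were tested, and 4 were lower and 5 higher, with a median of 0.39. PMAIP1, which encodes NOXA, a BH3-only protein that binds MCL1, rose from 16.9 ± 1.20 to 1104 ± 119 CPM (SD, n = 3 each, log2 fold change 6.06, adjusted p = 2.66e-13). BNIP3, a gene of mitochondrial autophagy, rose from 0.341 ± 0.153 to 22.7 ± 5.12 CPM. Of the apoptosome and caspase genes 9 of 13 were lower and 2 higher, with a median of -0.82. ENDOG, a mitochondrial nuclease, fell from 59.6 ± 18.4 to 2.73 ± 0.430 CPM (-4.41, adjusted p = 5.63e-09). DIABLO, which encodes an IAP antagonist, was among the 2 that were higher (6.75, adjusted p = 2.45e-12). It rose from a low level, 0.617 ± 0.219 CPM in DMSO, to 65.4 ± 7.33 CPM. Of its exonic bases, 32.3% are shared with other genes, some on the same strand. CASP10, the other higher gene, had means of 0.0165 CPM in DMSO and 2.59 CPM with toyocamycin at 72 h. From such a floor it could hardly have been called lower.

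Of the death receptor genes, 12 were tested, and 9 were higher and 2 lower at 72 h, with a median of 2.52. The 9 include TNFRSF10C and TNFSF10, which were near 0 in DMSO at 72 h, with means of 0.0762 and 0.129 CPM. With toyocamycin they had 1.29 and 0.786 CPM. From such a floor they could hardly have been called lower, so they add to the count and the median in 1 direction only. TNFRSF1A, the tumor necrosis factor receptor, was 1 of the 2 that fell, from 113 ± 2.90 to 15.7 ± 1.59 CPM (-2.81, adjusted p = 1.68e-11). Of the 6 IAP genes tested, 3 were lower and 2 higher, with a median of 0.10. Of the 7 genes of MCL1 protein turnover, 5 were lower, among them HUWE1 and BTRC, which mark MCL1 for degradation, and USP9X and USP13, which remove the mark. FBXW7, a further ligase subunit for MCL1, was the 1 that was higher. The median of the 7 was -1.54, and these turnover genes are named after their values were seen. These counts are set beside the 41.9% lower and 47.0% higher among all genes, and no list was tested as a set.

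**Figure D5:**
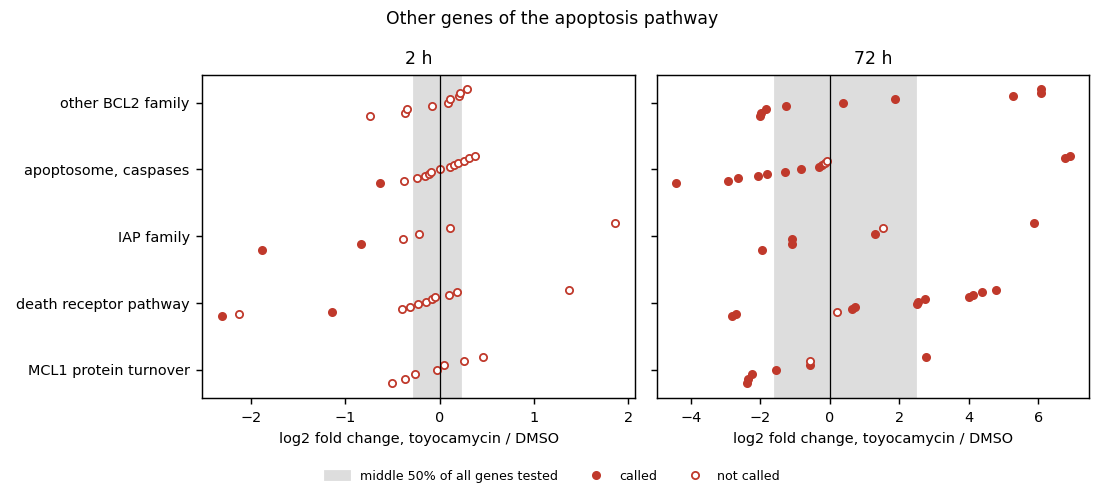
Log2 fold change of toyocamycin against DMSO at 2 h and at 72 h for the tested genes of the 5 lists, 1 point per gene, filled where the adjusted p was under 0.1. The gray band spans the quartiles of all 14491 genes tested, from -0.27 to 0.22 at 2 h and from -1.58 to 2.49 at 72 h. Most points lie near the band at 2 h, and the death receptor genes lie mainly to the right of 0 at 72 h (TNFRSF10C and TNFSF10 from near 0 CPM in DMSO).

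The genes whose levels ran most like MCL1 over the 17 libraries were sought among 7808 genes by Pearson's r of log2 CPM. They were ZSCAN25 (0.982), ZNF212 (0.978), CENPBD1P (0.973), GTF2B (0.972) and RPP38 (0.972). The libraries fall into groups of treatment and time, which all of these genes share, so these values describe likeness of course and carry no p.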

How the data were processed

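RNA-seq of YB5 cells was read from the table of raw counts that the authors deposited, 19141 genes in whole numbers. The authors aligned reads to GRCh38 with STAR 2.7.5a and counted them per gene. Which strand column was kept is not given in the sources used here, and counts per gene do not separate isoforms. A deposited table of the authors' edgeR fold changes and p-values was not used, and 1 count column, named for a replicate of DMSO at 10 h, matched no sample and was not used. For the last time point the labels, which were followed, say 72 h, whereas the study's text names a later one. Symbols were matched for 19080 genes, and positions came from GENCODE v44, a later annotation of the same build.

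Differential expression used edgeR 4.0.16 in R 4.3.3, with filterByExpr, TMM and the legacy quasi-likelihood test, and Benjamini-Hochberg adjustment over all genes. Calls were made at an adjusted p under 0.1. A fit of 14 libraries without those of 10 h covered 14491 genes, and a fit of all 17 covered 16521 genes and gave the result at 10 h. At 24 h and 48 h genes were called past a log2 fold change of 1. CPM used TMM of all 17 libraries, and log2 CPM a prior count of 2. The scripts were tested on simulated data. The extraction protocol speaks of biological replicates and nothing else ties libraries to separate cultures, so p-values measure the spread between these libraries. Replicates differed beyond counting noise, with a chi-square per degree of freedom of 5.75 to 67.8. In the labels, libraries of 2 h with the same number share a batch, and same-numbered deviations correlated (r = 0.307). Intervals hold counting error alone, because each arm had 1 library at 24 h and at 48 h. No molecular identifiers mark the reads, so copies of the same molecule cannot be told apart and counting error may be wider than the intervals.

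All 10 family genes were to be named at every time, with the 3 called genes of largest change in each direction from 5 pathway lists at 2 h and 72 h (average log2 CPM of at least 1), and the 5 genes most like MCL1 (average log2 CPM of at least 4). Some genes that this rule names are not reported here. The genes and lists were chosen with earlier results of these data known. Alternatives were library size alone, DESeq2's size factors, scaling on the 13 mitochondrially encoded genes, no filter, a minimum of 10 counts in each library, a batch term, other sets of libraries, DESeq2 1.42.0, the quasi-likelihood form of edgeR 4, an adjusted p under 0.05, a minimum fold of 1.5, a replicate block, and leaving out each library. Figures were drawn with matplotlib 3.10.9.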

Additional observations from a re-analysis of the deposited data

Results flagged for a closer look

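For 7 of the 10 genes the effect of toyocamycin at 72 h differed from that at 2 h by edgeR's test of the difference itself. The difference in log2 fold change was 3.00 for MCL1, 3.17 for BCL2L11, 2.57 for BAX and 1.39 for BAK1, and it was -2.56 for BIK, -1.57 for BID and -0.49 for BCL2L1. Over all genes tested, 38.1% differed downwards and 38.0% upwards, so a difference between the times was common. On the scale of mitochondrially encoded genes the difference of BAK1 was 0.4 and did not pass (adjusted p = 0.661), while those of MCL1 (2.05, adjusted p = 0.00964) and BCL2L11 (2.13, adjusted p = 0.00611) did. No group of the 10 genes could be searched for outlying libraries, since the largest group had 3 libraries.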

How the results depend on the processing

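Of 696 alternative log2 fold changes of single genes at 2 h, 10 h and 72 h and of the difference, 42 turned sign, 4 of them of a called value. The 696 include those under an adjusted p under 0.05 and a minimum fold of 1.5. These 2 settings keep the main log2 fold change, so they could not turn a sign. Of 422 that belonged to called values, 42 lost the call or turned, and 25 others gained one. Of 158 at 24 h and 48 h, where a call is a log2 change past 1 with no test, 18 turned sign, 9 of 79 lost the call or turned, and 14 gained one. The 158 include a fold threshold of 1.5, which also keeps the main value and can only add calls. Scaling on mitochondrially encoded genes took the counts of lower and higher genes to 0 lower at 2 h, 4 and 0 at 10 h, 8 and 0 at 24 h, 6 and 0 at 48 h, and 5 lower at 72 h, while 0.6% of all genes were lower at 2 h, 32.5% lower and 3.04% higher at 10 h, 71.1% and 8.98% at 24 h, 59.1% and 20.1% at 48 h, and 50.8% lower at 72 h. Library size alone gave 4 lower and 1 higher at 10 h (34.4% and 11.3% of all genes) and 5 lower at 72 h (50.4%). These scalings moved the median of all genes at 72 h from 0.18 to -0.89 and -0.42, and DESeq2's size factors moved it to 0.5. A minimum fold of 1.5 left 1 lower at 2 h (2.53% of all genes). At 10 h it left 1 lower and 2 higher (16.9% and 12.3%). DESeq2's size factors left 1 lower at 10 h (20.4%). The libraries of 2 h and 10 h alone left 1 lower and 3 higher at 10 h (21.9% and 11.7%). At 24 h, at least 10 counts in every library left 1 lower (28.2%), since BMF was no longer tested. A fold of 1.5 gave 5 higher at 24 h (37.2%). Leaving out a toyocamycin library of 10 h set 1 library against 1, so no count of calls is given for it. With the replicate block at 2 h, 1 gene was higher (8.72%). At 72 h the replicate numbers mark no pairing (same-number r of -0.105, 0.043 and -0.088). The block there left the counts at 3 lower and 4 higher (43.9% and 45.1%). At 2 h, BCL2 went to 0.01 with DESeq2's size factors and with its Wald test and to 0.00 with at least 10 counts (-0.28 to 0.29 without single libraries), BCL2L1 to -0.02 by library size and -0.13 on mitochondrial genes (-0.04 to 0.12), and BIK to -0.06 and -0.20 by the same scalings, 0.00 with the replicate block and -0.01 without it in the same 4 libraries, an alternative added after seeing the data (-0.18 to 0.22). At 10 h, MCL1 went to 0.02 with DESeq2's size factors and Wald test (-0.75 to 0.24 without single libraries), and BCL2L11 and BID to -0.35 and -0.44 on mitochondrial genes. On the same scale MCL1 was -1.21 at 24 h and -0.69 at 48 h. By library size and on mitochondrial genes, at 24 h BCL2 went to -0.63 and -1.88, BAX to -0.13 and -1.38, BID to -0.29 and -1.55, and BAD to -0.68 and -1.94. At 48 h BCL2 went to -0.19 and -1.42, BAK1 to -0.55 and -1.78, and BMF to -0.23 and -1.42, and BAD to 0.07 with DESeq2's size factors and 0.08 with at least 10 counts. At 72 h, BAD went to 0.23 with DESeq2's size factors and Wald test, 0.19 with at least 10 counts, 0.04 with the block and 0.01 without it (-0.32 to 0.06), BCL2 to -0.55 by library size and -1.06 on mitochondrial genes (-0.04 to 0.15), BAK1 to -0.12 and -0.61, and BMF to -0.45 and -0.95 (-0.20 to 0.61). The difference of BCL2 between 72 h and 2 h went to -0.48 and -1.03 (-0.23 to 0.33). The causes of these shifts were not tested. BMF, with 1 to 102 counts per library, is limited by depth.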

Other observations

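Further genes of the apoptosis lists stood high at 72 h and are given here as values, chosen after their values were seen. BBC3, which encodes the BH3-only protein PUMA, measured 18.1 to 28.9 CPM in DMSO and 744 to 1074 CPM with toyocamycin, a log2 fold change of 5.27 ± 0.267 (adjusted p = 5.24e-11). Its level was 395 CPM at 24 h and 759 CPM at 48 h with toyocamycin, against 20.9 and 10.0 CPM in DMSO. The death receptor gene TNFRSF10B, which encodes DR5, measured 122 to 126 CPM in DMSO and 2062 to 2187 CPM with toyocamycin at 72 h (4.12 ± 0.127, adjusted p = 6.39e-13). FAS changed by 4.37 ± 0.206 (adjusted p = 2.53e-11), and TNFRSF10D, a decoy receptor, by 4.77 ± 0.151 (adjusted p = 7.74e-13). CFLAR, which encodes the caspase-8 inhibitor FLIP, rose with them (2.75 ± 0.142, adjusted p = 6.33e-11). None of these 5 genes passed at 2 h, where their changes lay between -0.37 and 0.18.

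FADD and BIRC3 were, like MCL1, lower at 2 h and higher at 72 h, but their courses between these times differed. At 10 h the log2 fold change was -2.28 for FADD, 2.66 for BIRC3 and -0.18 for MCL1. BIRC2 was also lower at 2 h (-0.84) and higher at 72 h (1.29). FADD measured 13.0 and 13.3 CPM in DMSO and 2.24 and 3.09 CPM with toyocamycin at 2 h, and a mean of 13.1 against 73.8 CPM at 72 h, a difference between the effects of 4.84 ± 0.271 (adjusted p = 6.34e-10). BIRC3 differed by 7.75 ± 0.455 (adjusted p = 9.68e-10). BIRC5, which encodes survivin, did not pass at 2 h (0.11, adjusted p = 0.800) and was lower at 72 h (-1.96 ± 0.135, adjusted p = 1.73e-09).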
